A study of Homo sapiens with 9 samples.

Results

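The cytosolic ribosome reads messenger RNA into protein with a small and a large subunit, each built of ribosomal RNA and a fixed set of proteins. The genes of these proteins were taken as the protein coding rows, outside the Y chromosome, whose symbol has the form RPL or RPS with a number and an optional A or X, RPLP with a digit, or RPSA. Of 58336 genes in the deposited count table, 77 met this rule. They comprise 31 proteins of the small subunit (RPS genes and RPSA), 43 of the large subunit (RPL genes) and the 3 P proteins RPLP0, RPLP1 and RPLP2. The P proteins form the stalk of the large subunit, where elongation factors bind. The genes lie on 21 chromosomes, 12 of them on chromosome 19.

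The samples are HaCaT cells, an immortalized line of human keratinocytes that grows in culture without limit, and all came from this line in serum-containing medium. The labels describe 9 samples in 3 groups of 3. The control cells had no treatment. The other groups had low-dose photodynamic therapy (PDT) with aminolevulinic acid (ALA), a heme precursor that cells turn into a light-sensitive porphyrin: 0.5 mmol/L ALA and light of 635 ± 5 nm at 3 J/cm2, followed by 12 h or 48 h of further culture. In the tables, the columns Nc1, Nc2 and Nc3 were read as the 3 control libraries, an abbreviation that the labels do not spell out. The names of the other columns match no sample in the labels, so those columns were not used and no comparison of treated with control cells was made. What follows describes the 77 genes in the control libraries. The labels do not say that the 3 came from separate cultures, so differences between them may be technical.

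Each ribosome takes the same number of copies of nearly every ribosomal protein, and the P stalk is the known exception with its repeated dimers. Cells therefore produce these proteins in step, and they do so largely at translation. Most of the messengers belong to the class called TOP, for terminal oligopyrimidine: they begin with a C followed by an unbroken run of C and U. The protein LARP1 binds this start and holds the messengers back when the growth kinase MTOR is inactive. In dividing cells the messengers are among the most abundant of all, and keratinocytes in culture divide.

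The run can be seen in the gene sequence. The 10 windows printed here come from RefSeq promoters on GRCh38.p14. Each is 60 bases, read 5′ to 3′ on the strand of the gene, with 40 bases before the annotated start of transcription and 20 from it on. Capitals mark the unbroken run of C and T that holds the start base. The first 7 show the run in genes that the results below turn on: 3 abundant members (RPL41, RPL35, RPS18), a stalk protein (RPLP1), the longest run (RPL39), the S6 kinase substrate (RPS6) and the least counted member (RPS10).
RPL41, chr12:56116593-56116652, plus strand: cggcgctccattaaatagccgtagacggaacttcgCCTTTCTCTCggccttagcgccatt
RPL35, chr9:124861938-124861997, minus strand: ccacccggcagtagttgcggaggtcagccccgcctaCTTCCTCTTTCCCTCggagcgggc
RPS18, chr6:33272035-33272094, plus strand: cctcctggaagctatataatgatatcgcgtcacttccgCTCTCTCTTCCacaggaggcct
RPLP1, chr15:69452778-69452837, plus strand: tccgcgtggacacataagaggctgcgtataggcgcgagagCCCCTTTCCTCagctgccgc
RPL39, chrX:119791611-119791670, minus strand: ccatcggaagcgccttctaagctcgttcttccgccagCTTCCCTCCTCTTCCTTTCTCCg
RPS6, chr9:19380217-19380276, minus strand: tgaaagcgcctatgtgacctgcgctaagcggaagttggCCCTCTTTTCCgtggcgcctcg
RPS10, chr6:34426050-34426109, minus strand: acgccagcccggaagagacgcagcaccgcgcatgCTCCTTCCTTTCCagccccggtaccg
The last 3 are members with no such run at the annotated start. RPL4 and RPL6 are shown because they differ little between the libraries, and RPS27A because it encodes a fusion with ubiquitin. RPL4 and RPL6 do not stand for all members. RPS3A, with the run, had a log2 range between libraries of 0.05, and RPS29, without it, of 1.04.
RPL4, chr15:66504836-66504895, minus strand: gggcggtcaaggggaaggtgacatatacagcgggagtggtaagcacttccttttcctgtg
RPL6, chr12:112411423-112411482, minus strand: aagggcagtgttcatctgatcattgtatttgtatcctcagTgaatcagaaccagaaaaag
RPS27A, chr2:55231863-55231922, plus strand: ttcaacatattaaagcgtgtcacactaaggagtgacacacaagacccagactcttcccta

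RefSeq promoters were matched by symbol for 62 of the 77 genes, with only the first entry of each symbol used. A C at the annotated start followed by at least 4 more C or T bases was present in 42 of the 62 members, or 67.7%. The same run stood at 1104 of all 27305 promoters in the table, or 4.04%, and at 466 of 8988 other detected coding genes (10 or more counts in every library), or 5.18%. The start base itself was C in 46 members (74.2%), against 14.99% of all promoters. A run of at least 8 C or T bases holding the start was found in 40 members (64.5%) and in 4.80% of all promoters. The same letters on the opposite strand, read as a run of at least 8 A or G, held the start of 0 of the 62 members and of 4.04% of all promoters. The 46 members that start with C could not hold such a run, so the 0 is not a separate check of the strand. From the start on, the run was longest in RPL39, with 19 bases, followed by RPL7A with 16, RPS24 with 14 and the stalk gene RPLP2 with 13. RPL41 just reached the limit, with 5.

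Of the 20 members without the run at the annotated start, 8 held a C followed by at least 4 more C or T bases beginning within 5 bases of it: RPL3, RPL4, RPL10A, RPL11, RPL19, RPL32, RPS7 and RPS28. In the RPL4 window this stretch begins just after the annotated start. With these, 50 of 62 members (80.6%) held such a run at or near the start, against 21.1% of all promoters. The other 12 were RPL6, RPL9, RPL10, RPL13, RPL15, RPL17, RPL27, RPS4X, RPS15, RPS26, RPS27A and RPS29. The RPL6 start used, at 112411442 on the minus strand, lies inside the gene, which spans 112405190 to 112418838. Other starts of these genes were not examined, so lack of the run holds only for the entry used. The letters TATAAA, searched on both strands between 40 and 16 bases before the start, were found in 4 members (RPL3, RPLP0, RPS3 and RPS28), or 6.45%, against 3.09% of all promoters. These are matches of letters at starts that RefSeq annotates. Starts in HaCaT cells were not measured.

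Among gene lists that share the regulation or the function, the run was about as common in the translation factors and other coding genes named as TOP messengers, at 11 of 14 (78.6%). It stood at 4 of 9 noncoding snoRNA host genes (44.4%). The proteins of the mitochondrial ribosome, which form a separate machine inside mitochondria, held it at 5 of 69 starts (7.25%). Ribosome biogenesis factors held it at 2 of 24 (8.33%). The lists of translation factors and host genes were named for the TOP class, which this run defines, so high shares there were built into the choice.

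**Figure D1:**
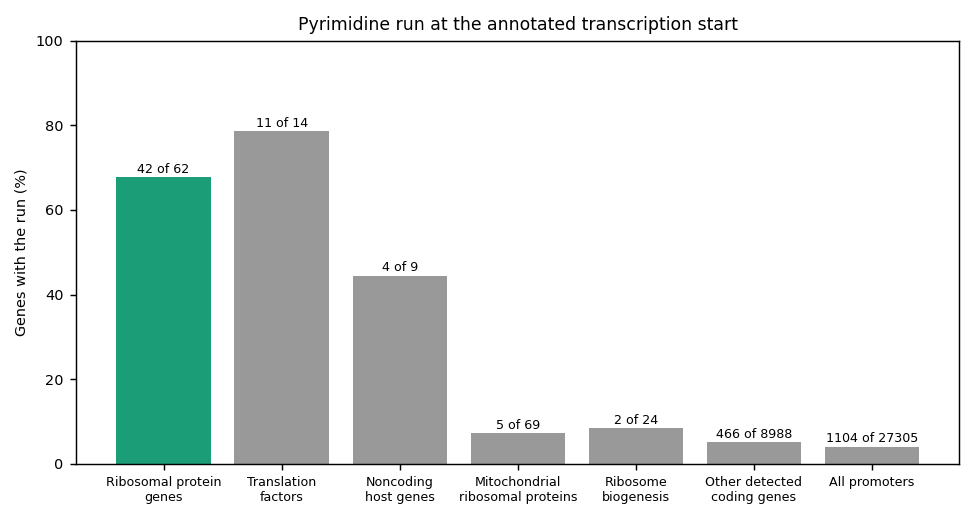
Bars give the percentage of genes, by gene list, whose RefSeq start is a C followed by at least 4 more pyrimidines, with the number of genes above each bar. Ribosomal protein genes (67.7%) and the translation factors, which were listed as TOP messengers (78.6%), stand far above mitochondrial ribosomal proteins (7.25%) and all promoters (4.04%).

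Ribosomal protein messengers took a large share of every control library. Of all counts they made up 9.79% (Nc1), 13.4% (Nc2) and 12.1% (Nc3), or 11.8 ± 1.85% (SD, n = 3). The 95% Wilson intervals, which cover counting error only, were 9.77% to 9.80%, 13.42% to 13.45% and 12.13% to 12.16%, so the libraries differ far beyond it. Small subunit genes took 4.37 ± 0.771%, large subunit genes 6.49 ± 0.894% and the 3 stalk genes 0.920 ± 0.183%. Nc1 was the lowest and Nc2 the highest for each of the 3 classes. Large subunit and stalk genes together had 1.77, 1.66 and 1.68 times the counts of the small subunit genes in Nc1, Nc2 and Nc3, so this ratio varied far less than the share itself. For scale, the 37 genes of the mitochondrial genome took 8.23 ± 0.378% and the 78 mitochondrial ribosomal proteins 0.765 ± 0.0678%. In bulk RNA, a lower share can mean fewer cells rich in these messengers or less of them per cell. A share also moves with the counts of every other gene and with library preparation. The tables cannot tell these apart.

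Library totals were 16989712 (Nc1), 16354678 (Nc2) and 16702425 (Nc3) counts. All 9 keratinocyte markers were detected, with KRT5 at 7200, 5929 and 7269 counts. Markers of red cells summed to 7358, 7480 and 3 counts, nearly all of it the globin genes HBB and HBA2, and in Nc3 HBA1, HBD, ALAS2, SLC4A1, AHSP and CA1 were at 0. Leukocyte markers summed to 403, 380 and 75 counts. Fibroblast markers summed to 45 to 71 counts with COL3A1, DCN and LUM at 0, endothelial markers to 45 to 70 with KDR and EMCN at 0, and melanocyte markers to 144 to 208 with TYR and DCT at 0.

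Levels of different genes were compared as the deposited FPKM, which are fragments per kilobase of annotated gene length, scaled to the depth of the library. The median member stood at 402 FPKM when the median was taken in each library and averaged. For the 12717 genes detected with 10 or more counts in every library, the median was 4.35 FPKM. In all, 8 members exceeded 1000 FPKM in every library, among them RPL41, RPL35, RPS2, RPL8, RPL7A, RPS18 and RPS12.

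The highest was RPL41, a peptide of the large subunit and the smallest ribosomal protein, encoded on chromosome 12 at 56116586 to 56117943 (ENSG00000229117, GRCh38). It stood at 1921 FPKM in Nc1, 3145 in Nc2 and 2642 in Nc3, or 2570 ± 615 (SD, n = 3). RPL35, a large subunit protein near the exit of the peptide tunnel, followed at 1548, 2811 and 2391 FPKM. RPS2, a small subunit protein at the entry of the messenger channel, stood at 1503, 2556 and 2114 FPKM. RPL8, which binds near the peptidyl transferase centre, stood at 1487, 2408 and 2167 FPKM. In these 4 genes Nc1 was the lowest library and Nc2 the highest, and the ranges of neighbours over the libraries overlapped. Within each library RPL41 was above RPL35, and RPL35 above RPS2 and RPL8. RPS2 was above RPL8 in Nc1 and Nc2 and below it in Nc3. This order holds for the deposited gene lengths and differs by the length used below.

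At the other end of the small subunit set, leaving aside genes that share at least 50% of their exon bases with another coding gene, RPS29 stood at 39.8, 78.2 and 64.5 FPKM, RPS15A at 51.7 to 79.7 and RPS24 at 80.8 to 89.4. In the large subunit the low end was RPL14 at 55.5, 63.9 and 58.6 FPKM, then RPL28 at 66.1 to 88.3 and RPL22 at 85.0 to 108. Across the 72 genes outside the shared set, mean levels ran from 59.4 FPKM (RPL14) to 2570 (RPL41), a span of 43.3-fold. Apart from the stalk, the ribosome holds these proteins in equal number. The span depends on the deposited gene lengths, which were 8626 bases for RPL14 and 1088 for RPL41. Their mean counts were 8522 and 46180. The middle 50% of these 72 lay between 249 and 691 FPKM. The class medians were 468 FPKM for 29 small subunit genes and 400.2 for 40 large subunit genes.

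The 3 stalk genes differed from one another. RPLP0, which anchors the stalk on ribosomal RNA, stood at 975, 1558 and 1270 FPKM. RPLP1 stood at 673, 1171 and 959 FPKM, and RPLP2 at 425, 729 and 604 FPKM. RPLP1 and RPLP2 bind RPLP0 as dimers, so the ribosome holds more of each than of RPLP0. In each library the order was RPLP0, RPLP1, RPLP2, although the ranges over the libraries overlapped between neighbours.

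Several members have known roles outside the subunits. RPL5 and RPL11, which with 5S RNA bind MDM2 and so stabilize p53 when assembly is disturbed, stood at 271, 262 and 251 FPKM and at 467, 582 and 520 FPKM. The ranges do not overlap, and RPL11 was above RPL5 in each library. RPS6, the substrate of S6 kinase, stood at 374, 400.3 and 362 FPKM. RPS27A, which is made as a fusion with ubiquitin, stood at 341, 403 and 370.4 FPKM. FAU, which carries a ubiquitin-like part and yields RPS30, falls outside the naming rule and stood at 591 ± 167 FPKM (SD, n = 3).

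**Figure D2:**
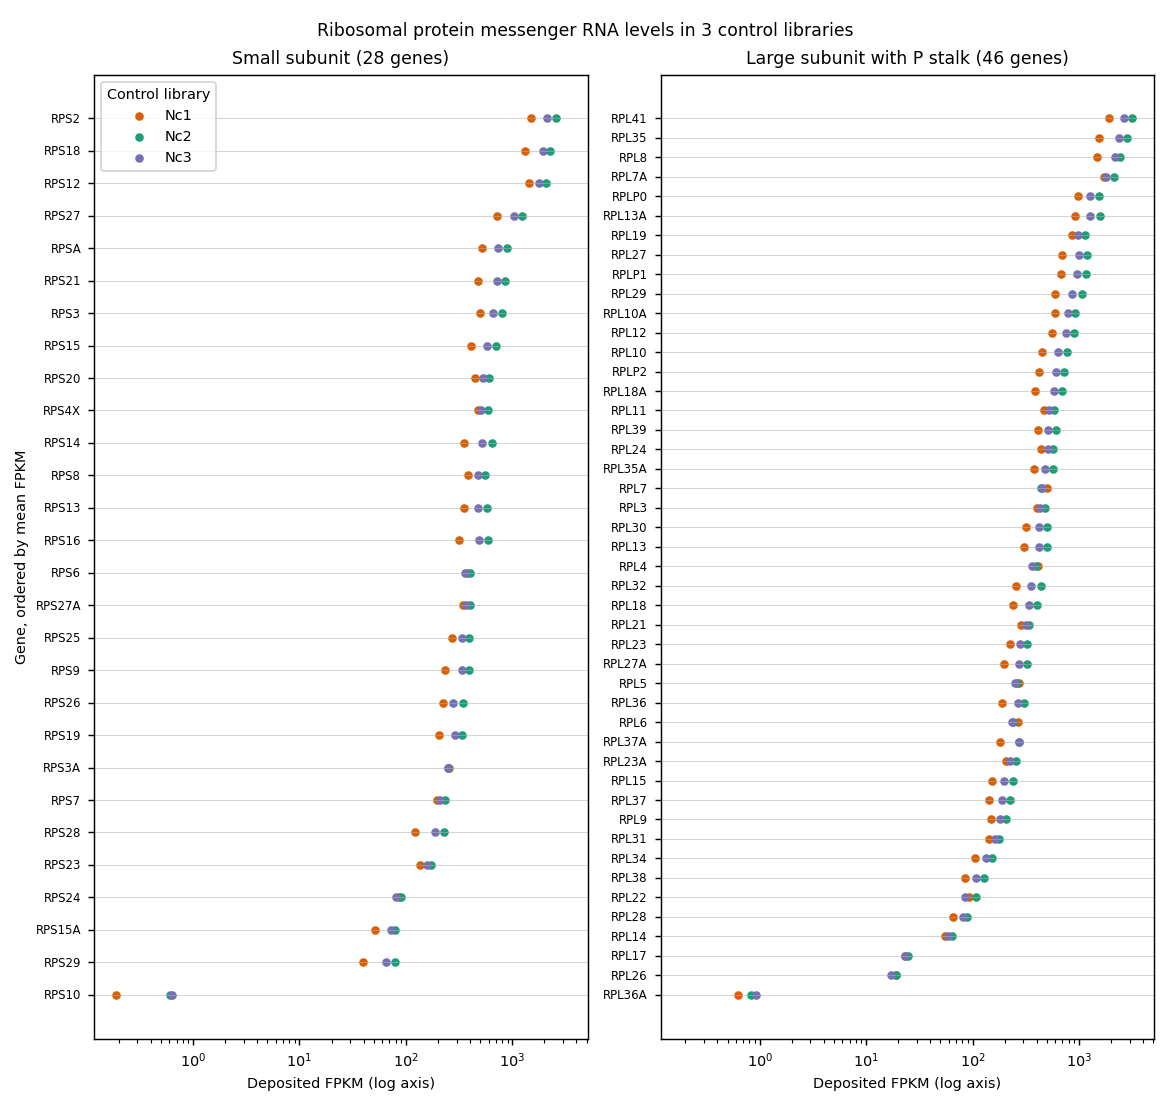
Points give the deposited FPKM (log axis) of each gene in the 3 control libraries, with 28 small subunit genes on the left and 46 large subunit and stalk genes on the right, ordered by mean. Most genes lie above 100 FPKM with Nc1 at the left of each set of points, and RPS10, RPL36A, RPL26 and RPL17 fall away at the bottom.

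The length used for a gene changes its place. The deposited FPKM divide by a gene length that covers more than a single messenger, such as 9845 bases for RPS29 against 677 in its annotated principal transcript. Per kilobase of 1 transcript of GENCODE 29 and at the depth scale of FPKM, a choice made after the values were seen, the median member stood at 1121 in place of 402. RPL35 was then the highest, at 7525 ± 1834 (SD, n = 3), before RPS18 at 5630 ± 1197 and RPS2 at 4999.6 ± 1057, and RPL41 fell to place 7 with 3970 ± 769. RPL30 went from place 38 of 77 to 10, RPS24 from 68 to 41, RPS29 from 71 to 46 and RPS7 from 58 to 36. No other member moved by more than 20 places. RPL14, RPS10, RPL36A, RPL17 and RPL26 remained among the lowest by both lengths. Where principal transcripts ranked equally, the longest was taken. For RPL14 both lengths are long, 8626 bases for the gene and 7072 for the transcript. The 2 lengths are thus not separate checks of its low place. Across the 72 genes outside the shared set, the span per kilobase of transcript was 104-fold.

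Among the lowest 5 members were RPS10, RPL36A, RPL26 and RPL17, proteins that a ribosome needs like the rest. RPS10 had 8 (Nc1), 22 (Nc2) and 25 (Nc3) counts. RPL36A had 44, 51 and 62 counts, RPL26 859, 747 and 728, and RPL17 1021, 944 and 964. Each of the 5 had a mean under 1000 counts, while each of the other 72 had a mean of at least 5000.

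In GENCODE 29 these 5 are the members whose exons are shared with a second coding gene on the same strand over at least 50% of their bases. For RPS10 (chromosome 6, 34417454 to 34426125, minus strand) 77.02% of exon bases also belong to RPS10-NUDT3, a readthrough gene with 0, 1 and 0 counts. RPL36A shares 77.6% with RPL36A-HNRNPH2, which had no count. RPL26 shares 59.0% with an unnamed coding gene that had no count either. RPL17 shares 68.6% with RPL17-C18orf32, which had 0, 1 and 3 counts. The next members were RPL22 at 11.1%, RPS15A at 9.90% and RPS13 at 8.98%, and the other 69 shared no exon base with a coding gene of their strand. The sources used here do not state how reads that fall in several genes were counted, so the levels of these 5 are uncertain. They hold 0.0126 ± 0.000298% of all counts. On the opposite strand, 23 members shared exon bases with another gene, among them RPL38 at 57.8% and RPL10 at 56.6%. Whether strand was used in counting was not given, so overlap on that strand may also affect counts.

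The same pattern was looked for in the genes of the other lists, after the members' values were seen. Of 170 with a transcript, 8 shared at least 50% of their exon bases with another coding gene on the same strand. EEF1G, a subunit of the elongation factor that delivers transfer RNA, shared 99.9% with AP002990.1 and was listed at 0 counts in all 3 libraries, and AP002990.1 had 38, 48 and 47. NOP2, a methyltransferase of large subunit RNA, shared 94.0% with AC006064.6 and had 7, 10 and 9 counts. The other 6 were mitochondrial ribosomal proteins, from MRPL38 with 14, 20 and 26 counts to MRPL12 with 696, 989 and 858. FAU, with 47.0% of its exon bases shared with SYVN1, had 13614, 21413 and 18912 counts, so a large overlap did not go with a low count in every gene.

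**Figure D3:**
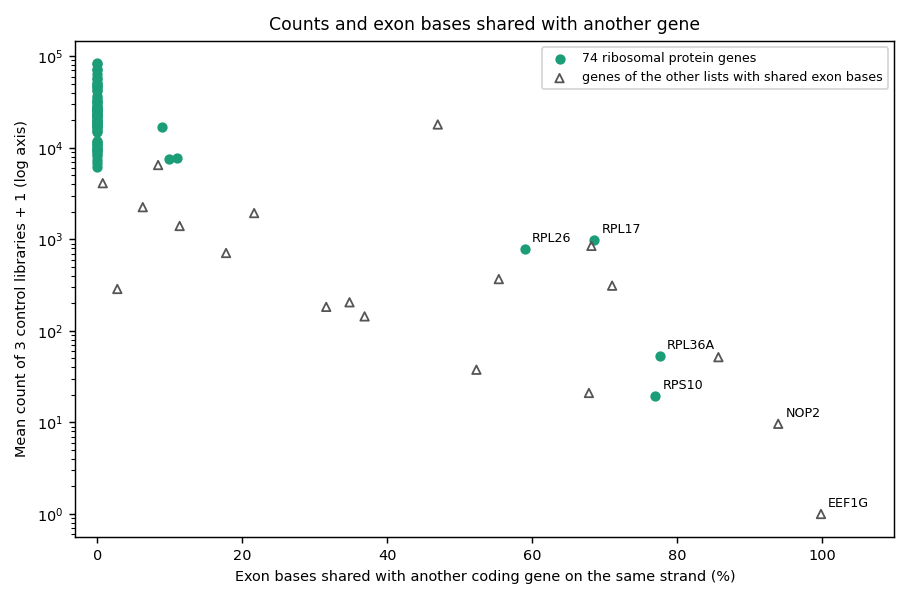
Each point is a gene, with the percentage of its exon bases shared with another coding gene on the same strand on the x axis and its mean count of 3 control libraries plus 1 on a log y axis. The 4 named members lie under 1000 counts at 59.0% to 77.6%, apart from the other 70 drawn, and EEF1G and NOP2 are lower still.

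Reads of ribosomal protein messengers can also fit processed pseudogenes, which are copies of the messenger inserted elsewhere in the genome. The table names 1135 pseudogenes after members. They held 0.448 ± 0.0777% of all counts, and 922 of them had no count. For 49 of 76 members with a pseudogene, the pseudogenes together had under 1% of the member's counts. The share was highest for RPS10, where 11 pseudogenes summed to 175, 265 and 256 counts against 8, 22 and 25 for the gene. RPS28 was next: its pseudogenes summed to 6182, 9906 and 8708 counts against 4545, 7423 and 6658 for RPS28 itself, or 133 ± 2.61% (SD, n = 3). For RPS2 the share was 24.9 ± 0.696%, for RPSA, the laminin receptor protein of the small subunit, 21.5 ± 0.182%, and for RPL7 20.1 ± 0.772%. Whether reads passed between these members and their copies was not tested, so their levels are uncertain. The share differed little between libraries for RPS28, RPS2, RPSA and RPL7.

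The libraries differed in most members, and largely in 1 direction. Differences between libraries were taken as log2 values on the counts, scaled by TMM (a trimmed mean of ratios over all genes), with 0.5 added to each count. Each library was set against the mean of the other 2, so the 3 values of a gene depend on one another. The median member was −0.59 in Nc1, 0.47 in Nc2 and 0.10 in Nc3, while the median of all 13290 genes tested was 0.01 in each library. Of the 77, 70 were lowest in Nc1 and 72 highest in Nc2, and 67 had the order Nc1, Nc3, Nc2 from low to high. Of all 13290 genes tested, 5471 were lowest in Nc1 and 4831 highest in Nc2. The full order was counted for the members only. The coefficient of variation of the median member was 24.0%, against 0.671% from counting error, and that of the median gene of all tested was 13.4% against 5.41%.

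A chi-square test of a single rate in the 3 libraries was run over all genes whose counts averaged 10 or more, and adjusted by Benjamini-Hochberg. It compares libraries, not conditions. At an adjusted p under 0.05 it called 74 of the 77 members, where 56.7% of all genes tested were called. Of the members, 68 were called with Nc1 lowest (26.8% of all genes) and 2 with Nc1 highest (25.7% of all genes). The 3 not called were RPL17 (adjusted p = 0.103), RPL36A (adjusted p = 0.113) and RPL26 (adjusted p = 0.149), all of them genes with shared exons and few counts. With library totals in place of TMM, the median of all genes in Nc1 moved to 0.18 and that of the members to −0.43. All genes called were then 2239 with Nc1 lowest and 5370 with Nc1 highest, against 3556 and 3412 with TMM, and 66 and 8 members were called in these directions.

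More deeply counted genes were called more often. Among genes that averaged 5000 counts or more, all 72 members and 389 of 395 other genes (98.5%) were called, so at this depth nearly every gene differs between the libraries. The direction can be set side by side at the same depth. Called and lowest in Nc1 were 66 of these 72 members (91.7%) and 245 of the 395 others (62.0%). The median difference of Nc1 was −0.60 in the members and −0.17 in the others. No test of that gap was made.

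Small subunit genes had a median of −0.67 in Nc1, large subunit genes −0.53 and the stalk genes −0.70. Leaving out RPS10 with its few counts, the members with the widest range between libraries were small subunit genes. RPS29 had 6973, 11956 and 10646 counts and a log2 range of 1.04. RPS28 ranged over 0.97 and RPS16 over 0.96. In these 3 Nc1 was the lowest library and Nc2 the highest. RPS10 itself ranged over 1.73, on 8 to 25 counts. Over all members, 53 had a range above 0.5. The median range was 0.69 in the members and 0.37 in all genes tested.

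Other members were nearly level. RPS3A, a small subunit protein, had 10473, 9057 and 9847 counts and a range of 0.05 after scaling, the narrowest of the 77. RPL5 followed at 0.07, RPL7 at 0.12, RPL4 at 0.14 and RPL17 at 0.15. RPL6 and RPL7 were the 2 members called with Nc1 highest. RPL6 had 21316, 16395 and 17336 counts, which is 0.14 above the other libraries in Nc1 on the log2 scale (adjusted p = 2.2e-26). RPL7 had 26066, 20054 and 21775 counts and was 0.12 above (adjusted p = 3.3e-22). RPL4, RPL5, RPL22, RPL26 and RPS24 were lowest in Nc3 and highest in Nc2. The p53-linked pair thus divided, with RPL5 at 0.02 in Nc1 and RPL11 at −0.30. RPS6 stood at −0.08, 0.16 and −0.08 in Nc1, Nc2 and Nc3. With library totals, 5 of these low values in Nc1 turned positive, those of RPL17, RPL22, RPS3A, RPS6 and RPS24, and RPL4, RPL5, RPL26, RPS3A, RPS6 and RPS24 joined RPL6 and RPL7 as members called with Nc1 highest.

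The stalk genes kept together, at −0.59 for RPLP0, −0.72 for RPLP1 and −0.70 for RPLP2 in Nc1. Among the ubiquitin fusions, RPS27A stood at −0.24 in Nc1, and FAU, with its ubiquitin-like part, at −0.77.

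**Figure D4:**
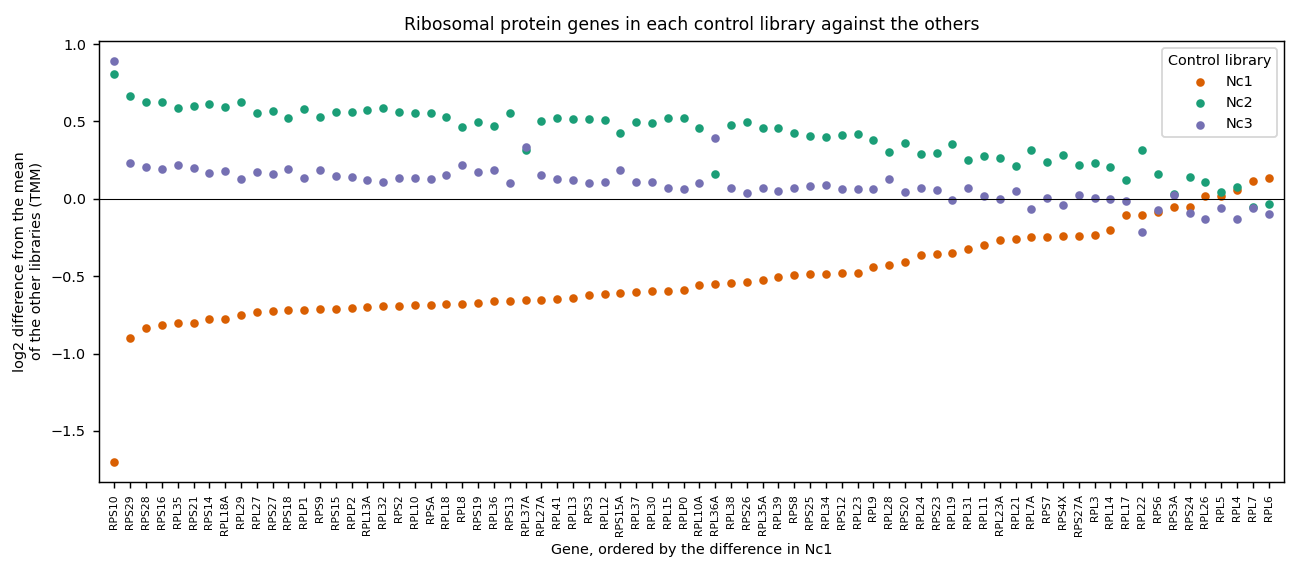
Points give, for each of 74 genes, the log2 difference of each control library from the mean of the other 2 after TMM scaling, ordered by the value of Nc1. Nc1 lies below 0 for most genes, with a median of −0.59, and the 3 libraries meet near 0 at the right end, where RPL6 and RPL7 are highest in Nc1.

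Red cell marker counts were 7358 in Nc1, 7480 in Nc2 and 3 in Nc3. The median member differed by −0.69 between Nc1 and Nc2 and by 0.24 between Nc2 and Nc3. The part of red cell RNA in the differences of the members was not tested.

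Base composition and length moved with the difference between libraries. Across the 77 members, the log2 difference of Nc1 from Nc2 fell with the GC content of the transcript (Pearson r = −0.54, Spearman rho = −0.61), and across 13283 genes the values were −0.50 and −0.57. With transcript length r was 0.15 in the members and 0.42 in all genes. These are correlations across genes of the same 2 libraries and genes are not independent replicates.

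Of the 77 members, 59 fell in the shortest of 5 equal bins of all genes tested, up to 1596 bases. In that bin the median Nc1 difference was −0.56 for the members and −0.33 for 2598 other genes. By GC content no member fell in the lowest of 5 equal bins. In the next 4, from low to high GC, the members stood at −0.35, −0.54, −0.70 and −0.70, and the other genes at 0.20, 0.06, −0.16 and −0.35. The members were thus below the other genes in each GC bin that held any, and both moved the same way with GC content. How much of the members' difference goes with length or base composition was not tested.

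**Figure D5:**
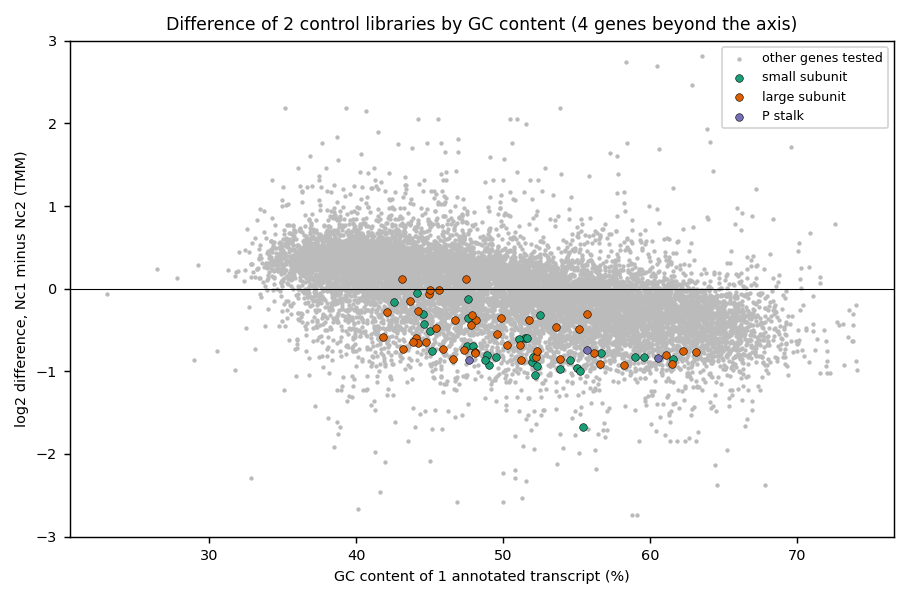
Each point is a gene, with the GC percentage of its annotated transcript on the x axis and its log2 difference of Nc1 from Nc2 after TMM scaling on the y axis. Values fall with GC content in the grey cloud of all genes (r = −0.50) and in the members (r = −0.54), and most members lie below 0; 4 genes lie beyond the axis limits of 3.

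The Nc1 difference was set out by the run at the start, with no test between the sets. The 42 members with the run had a median of −0.62, with 41 below 0, and the 20 without it −0.49, with 18 below 0. Of the translation factors, the 11 with the run had a median of −0.01, with 6 below 0, and the 2 without it −0.40. Among other detected coding genes the medians were 0.03 for 466 with the run and 0.04 for those without it.

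Genes with related functions did not all share the order of the libraries. Of 20 translation factors and other coding genes named as TOP messengers, 19 were tested and all 19 were called (56.7% of all genes). Of these, 8 were lowest (26.8% of all genes) and 10 highest (25.7% of all genes) in Nc1, with a median of 0.08. With library totals 17 were called, 5 lowest and 12 highest, with a median of 0.25. EEF1A1, the factor that carries transfer RNA to the ribosome, had 211290, 149979 and 163320 counts and stood at 0.23 in Nc1. EEF2, which moves the ribosome along the messenger, stood at −0.05 (0.11 with library totals), and RACK1, a signalling scaffold on the small subunit, at −0.45. The lowest of the list by FPKM were EEF1G, listed at 0, VIM at 0.836 ± 0.187 and NAP1L1 at 12.4 ± 1.88 (SD, n = 3).

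Noncoding snoRNA host genes, several of them known TOP RNAs, were lowest in Nc1 in 8 of 8 tested and called in 7 (56.7% of all genes). Their median was −0.36, or −0.19 with library totals, where 6 were called. SNHG6 stood at −0.41, SNHG8 at −0.64 and SNHG5 at −0.26, and the least abundant were GAS5 at −0.32, SNHG12 at −0.39 and EPB41L4A-AS1 at −0.17, the last not called. Of 78 mitochondrial ribosomal proteins, 68 were called (56.7% of all genes), 53 with Nc1 lowest and 12 with Nc1 highest, with a median of −0.30. With library totals 59 were called, 40 lowest and 18 highest, with a median of −0.13. MRPS34 stood at −0.70, MRPL41 at −0.83 and MRPL15 at −0.13 (0.03 with library totals), with MRPS34 the most abundant at 241 ± 59.1 FPKM. The least abundant were MRPL38, MRPS24 and MRPL53, which share exons with another gene, and of these MRPL53 was called, at 0.94. Of 29 ribosome biogenesis factors tested, 21 were called (56.7% of all genes), 9 lowest and 11 highest in Nc1, with a median of 0.03. With library totals 24 were called, 6 lowest and 18 highest, and the median was 0.19. NCL, the nucleolar protein nucleolin, stood at 0.25, FBL, the methyltransferase fibrillarin, at −0.34 and MRTO4 at −0.40. WDR12 stood at 0.39 and RIOK2, not called, at 0.02.

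Of 8 close paralogs outside the naming rule, 6 had at least 10 counts in every library. RPL36AL stood at 126 ± 8.40 FPKM, RPL39L at 74.4 ± 15.7 and RPL26L1 at 50.1 ± 5.15, and RPL7L1, RPL22L1 and RPS27L between 7.19 and 26.8 FPKM. RPL3L, known from muscle, had 6, 3 and 3 counts, and RPL10L, known from testis, had no count. All 6 were tested and called (56.7% of all genes), 5 with Nc1 lowest. With library totals 5 were called, 4 of them with Nc1 lowest. RPL7L1 was highest in Nc1 at 0.34, as RPL7 was at 0.12. RPL36AL, whose protein nearly equals that of RPL36A, had 1546, 1532 and 1616 counts where RPL36A had 44 to 62.

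Of 10 genes listed as chaperones of ribosomal proteins or of the 5S particle, 9 were called (56.7% of all genes). Of these, 6 were lowest and 3 highest in Nc1, and the median of the list was −0.26. The role of each listed gene was not checked here. With library totals the calls were 5 lowest and 4 highest, with a median of −0.10. AAMP stood at −0.47, TSR2, which escorts RPS26, at −0.18, and RRP7A at −0.59. GRWD1, which binds RPL3, stood at −0.35. At the low end of FPKM, NAA16 stood at 0.54, PDCD2L at −0.68 and LTV1, which escorts RPS3, at 0.32. Genes that set growth and the use of the messengers were called in 12 of 14 (56.7% of all genes), 6 lowest and 5 highest in Nc1. Their median was −0.13, or 0.03 with library totals. EIF4EBP1, an inhibitor of cap-dependent translation, stood at −0.65, LARP1 at 0.14, MTOR at 0.15 and MYC at 0.13. DDIT4, an inhibitor of MTOR signalling, stood at −0.28. The lowest 3 of that list, TSC2, RPS6KB1 and TSC1, stood at −0.24, 0.58 and 0.16.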

How the data were processed

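Paired reads of 150 bases were made from total RNA, per the labels' protocols. FastQC, HISAT2, StringTie and GRCh38 are named in the submitters' processing notes, with no versions or roles. The annotation, whether strand was used, and how a read fitting several genes was counted were not given in the sources used here. The authors deposited whole-number counts per gene and FPKM. On the columns used, each FPKM deposited by the authors equalled the count divided by gene length and by a library constant, which was 1.05 (Nc1), 0.949 (Nc2) and 1.00 (Nc3) times the total. Across both deposited tables, 12 columns, 6 in each, match no sample in the labels and were not used, so the planned comparisons of treated with control cells were not run.

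TMM factors (edgeR 4.0.16, R 4.3.3) were 1.08, 0.933 and 0.994. DESeq2 1.42.0 gave size factors for an alternative. The chi-square test used Python 3.11.15 and SciPy 1.17.1 on genes averaging 10 counts or more. It was first tried on simulated counts that carried counting error only. The real libraries spread more widely, so that trial does not bear on the calls made here. Percentages of counts carry counting error that is small beside the spread of the libraries. All 77 members are in GENCODE 29, which gave transcript length, GC content and exons, and 72 have the same start and end there. Of 58336 identifiers 58216 matched.

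The members and lists were chosen with earlier results of these data known. Named in full were the 5 highest and 5 lowest members by FPKM, the 5 with the widest and the 5 with the narrowest range, the stalk, the ubiquitin fusions, RPL5, RPL11, RPS6, and the 3 highest and 3 lowest genes of each list. The looks at exons, pseudogenes, deep genes, and bins of length and GC were chosen after values were seen, as were other genes named. Alternatives were other scalings, a minimum mean of 100 counts, other denominators and lengths, and leaving out each library. Some genes that the rule for named genes covers are not reported here, and the plots that print gene names leave them out.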

Additional observations from a re-analysis of the deposited data

How the results depend on the processing

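The number of members called, 74, stayed within 73 to 75 under the other scalings and the stricter filter. In these settings 56.6% to 70.7% of all genes tested were called. With library totals as sizes the median of all genes in Nc1 shifted to 0.18 and that of the members to −0.43, and the members called with Nc1 highest went from 2 to 8. With each library left out in turn, 70 to 73 members were called. The share of all genes called was 18.4% without Nc1, 45.0% without Nc2 and 52.6% without Nc3. Without Nc2 or Nc3, which leave Nc1 in, 67 to 71 members were called with Nc1 lowest and 2 to 5 with Nc1 highest. The value of 5 came without Nc2, where Nc1 was compared with Nc3 alone, and the median member in Nc1 lay between −0.69 and −0.45. Of all genes, 3172 of 13321 without Nc2 and 3572 of 13333 without Nc3 were called with Nc1 lowest. With Nc1 highest the calls were 2816 and 3438. Over all genes, 7536 of 13290 were called with the 3 libraries and 2438 of 13244 without Nc1, where 70 members were still called. Members are counted more deeply than most genes, and without Nc1 no share was taken for other genes of the same depth. The share of counts taken by members lay between 11.0% and 12.8% with a library left out, and was 13.1% of counts of coding genes outside the mitochondrial genome and 11.9% of the TMM size. With a library left out the median level lay between 381 and 433 FPKM. Per kilobase of 1 transcript, an alternative added after seeing the data, the median level was 1121 in place of 402, since transcripts are shorter than the deposited gene lengths. No paired analysis was possible because only control libraries entered. The comparisons with treated cells and all their alternatives were not run. Depth limits RPS10 and RPL36A, with 8 to 62 counts, and not the 72 members with a mean of at least 5000.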
